A study of Homo sapiens with 41 samples.

Results

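CTCF-cohesin sites inside gene bodies are places where CTCF and the cohesin subunit RAD21 were both called, without stress, within a protein-coding gene and away from its ends. Overlapping peaks of the 3 untreated CTCF lists were merged, and a site was kept where every untreated CTCF list and every untreated RAD21 list had a peak overlapping it by at least 1 bp. It also had to lie within a RefSeq protein-coding gene span on chromosomes 1 to 22 or X, over 1 kb from the end of any such gene. The rule gave 3318 sites, 35.6% of the 9331 CTCF-cohesin sites of these cells. The others were 1480 sites within 1 kb of a gene end and 4533 sites between genes. The sites were chosen by the presence of untreated CTCF, RAD21 and Pol II peaks, so their presence without stress, and differences from it, are given as a description with no test. The sites were further split by RNA polymerase II (Pol II) without stress. A region of both untreated Pol II lists overlapped 934 sites, which are called in Pol II, neither list reached 1384 sites, which are called out of Pol II, and 1000 sites were in a region of 1 list.

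CTCF is a zinc finger protein that binds a long, direction-bearing DNA motif. Cohesin is a ring that holds DNA strands together and extrudes chromatin loops until it meets CTCF, which stops it when the motif points toward the ring, so sites bound by both often anchor loops and domain borders. Inside a gene such a site lies in the path of elongating Pol II, which can push cohesin along the DNA, and CTCF bound in gene bodies has been linked to Pol II pausing and to the choice of exons.

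The cells were the luminal breast cancer line T47D, a long-established human line. They were kept in steroid-depleted medium and then overnight without serum, and every group below shares this preparation. Chromatin immunoprecipitation with sequencing (ChIP-seq) was run for CTCF, RAD21 and Pol II. The stressed groups received 110 mM NaCl, which makes the medium hypertonic. CTCF had 3 libraries without stress, 2 at 7.5 min of NaCl, 1 at 30 min and 3 at 60 min (1 h). RAD21 had 3 libraries without stress, 3 at 60 min of NaCl and 3 at 60 min of NaCl followed by 60 min back in isotonic medium (recovery). Pol II had 2 libraries at 60 min and 2 without stress. CTCF recovery was represented by 1 library. Each of the 6 groups CTCF and RAD21 at 60 min of NaCl, at recovery and without stress also had 1 library from cells pre-treated with 500 nM triptolide, which blocks transcription initiation. Replicate 3 of each group, the CTCF recovery library and the triptolide libraries come from a later set of 12 libraries, called set 2. In 6 of those 12, the tag for pre-treatment and the title disagree on triptolide. The titles were followed. The disagreement covers recovery replicate 3 of RAD21 and the CTCF recovery library, which the tags, unlike the titles, give as treated with triptolide.

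Each list was called on 1 library, and the lists hold no read totals, so the depth is unknown and the number of peaks stands in for it. RAD21 lists held 4761, 7843 and 6630 peaks at 1 h of NaCl and 18297, 13762 and 24931 without stress. CTCF lists held 35374, 34205 and 22018 peaks at 1 h and 59843, 43835 and 38571 without stress. RAD21 recovery replicate 2 stood apart, with 20400 peaks against 4397 and 6492 in recovery replicates 1 and 3. The Pol II lists consist of many regions of low significance, with a -log10 q under 1.3 in 80.0% and 92.4% of the regions at 1 h and in 50.0% and 48.5% without stress. With untreated regions of at least that value alone, 337 sites would be in Pol II and 2042 out. Of the luminal breast markers, 8 of 10 genes had untreated Pol II within 1 kb of an end in both lists, including GATA3, FOXA1, KRT8 and CDH1, against 0 of 4 basal, 1 of 5 haematopoietic and 1 of 5 fibroblast markers and 55.4% of all protein-coding genes. Nothing in the labels says that replicates were separate cultures, so the spread behind each p-value is that of these libraries and may be technical. A share of sites in 1 library is 1 value, and the libraries are the replicates.

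Sequence was at hand only for windows around RefSeq transcript starts, of 300 bases each, so it shows the few sites that lie near a transcript start inside a gene, either of the gene itself or of another transcript. The centres (the median of the untreated CTCF summits) of 86 sites fell in 94 such windows. The core of the CTCF motif was searched on both strands as CCA, any 2 bases, AG, any 2 bases and GGC, which makes 8 fixed letters of 12. It was found in 8 of these 94 windows (8.51%) and in 842 of all 34789 windows (2.42%). The 9 matches lay a median of 25 bp from the centre, 7 of them within 50 bp. The following stretches are from RefSeq for GRCh38.p14 and carry the match in capitals, in either direction. Each is named by the protein-coding gene that holds the site, but lies before the start of another transcript, on whose strand it is given. Those transcripts are, in order, LOC105378298, LINC01570, LOC105371351, LOC101927046 and IL2RB-AS1. They are shown as the motif matches inside sites where both proteins were called. A match does not show that either protein lay on these bases.
WDFY4, chr10:48981483-48981542, minus strand: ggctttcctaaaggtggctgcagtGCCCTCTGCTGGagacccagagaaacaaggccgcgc
RBFOX1, chr16:5616267-5616326, minus strand: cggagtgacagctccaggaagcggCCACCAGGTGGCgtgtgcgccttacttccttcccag
VAT1L, chr16:77971724-77971783, minus strand: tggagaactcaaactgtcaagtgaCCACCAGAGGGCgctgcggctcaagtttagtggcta
IL17B, chr5:149382030-149382089, plus strand: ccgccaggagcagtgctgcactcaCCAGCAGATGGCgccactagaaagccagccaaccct
IL2RB, chr22:37166672-37166731, plus strand: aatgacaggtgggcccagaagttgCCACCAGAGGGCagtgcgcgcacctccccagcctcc

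The 12 letters of the match were identical at VAT1L and IL2RB, and their RAD21 lists differed. At VAT1L, in Pol II, RAD21 was called in 3 of 3 lists at 1 h with fold enrichments of 4.74, 5.50 and 5.90, against 11.8, 6.32 and 10.3 without stress. At IL2RB, in 1 Pol II list, RAD21 was called in 0 of 3 lists at 1 h and had fold enrichments of 6.48, 5.61 and 6.43 without stress. CTCF was called in all 3 lists at 1 h at both sites, with 21.8, 9.28 and 9.24 at VAT1L and 36.1, 12.6 and 19.1 at IL2RB. Fold enrichment is the authors' value for each peak relative to the caller's background. It is given to describe peaks within a list, since lists of different length and depth do not share a scale. The sites at WDFY4 and RBFOX1 had RAD21 in 3 of 3 lists at 1 h, and the site at IL17B in 2 of 3. IL2RB encodes a chain of the interleukin receptors for lymphocyte growth factors, and RBFOX1 a splicing regulator of neurons and muscle.

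The 3318 sites lay in 2567 genes, of which 2029 held a single site, 538 held 2 or more and 15 held 5 or more. Sites in Pol II were in shorter genes and nearer to gene ends. The median gene length was 65.9 kb for sites in Pol II and 140 kb for sites out of Pol II, and the median distance to the nearest gene end was 10.6 kb and 24.8 kb. A RefSeq start inside the gene lay within 1 kb of 9.03% of the sites in Pol II (82 of 908 on chromosomes covered by the start table) and of 3.12% of the sites out of Pol II (41 of 1315). Among the 2579 sites in a gene of known strand, 42.7% lay in the last of 3 equal stretches of the gene and 25.5% in the first. The lowest-ranking untreated RAD21 peak of a site was at a median percentile of 50.9 within its list for sites in Pol II and of 55.1 for sites out of Pol II, and the lowest-ranking CTCF peak at 40.6 and 54.7. Sites in Pol II were thus weaker in their weakest untreated library for both proteins. Single libraries did not all share this order. Median percentiles in and out of Pol II were 66.1 and 63.1 for RAD21 replicate 2 and 83.5 and 77.0 for CTCF replicate 3. In the other untreated libraries of both proteins the median was lower in Pol II. Of all CTCF-cohesin sites, 28.5% were in Pol II by the same rule.

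The values on either side of the thresholds of the rule are as follows, with no test. The 234 sites 1 to 2 kb from a gene end had RAD21 in 31.2%, 57.3% and 41.9% of cases in the 1 h libraries, and the 1480 sites just outside the rule, within 1 kb of a gene end, in 30.1%, 64.3% and 36.1%. From 1 to 2 kb to over 100 kb from a gene end the share of sites in Pol II was, in order of distance, 44.9%, 39.6%, 32.6%, 20.6% and 12.2%. Of the sites over 100 kb from a gene end, RAD21 was called in 44.3%, 56.8% and 58.8%. Gene-body sites with CTCF in all untreated lists but RAD21 in only 2 of 3 numbered 2160. RAD21 was called at 1 h at 41.1%, 59.8% and 55.2% of the sites with RAD21 in all 3, against 10.5%, 12.3% and 19.2% of these 2160.

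After 1 h of NaCl, RAD21 was called at about as many of the gene-body sites as not, and CTCF was still called at most. RAD21 was present at 41.1%, 59.8% and 55.2% of the 3318 sites (52.0% ± 9.72, SD, n = 3) and CTCF at 97.9%, 94.2% and 80.7% (90.9% ± 9.10, SD, n = 3). Every RAD21 library was below every CTCF library, a difference of -38.9 percentage points, with p = 0.1 in an exact 2-sided permutation test, the smallest that 3 against 3 libraries allow. RAD21 was present in all 1 h lists at 1192 sites (35.9%) and in none at 1032 (31.1%). The same held for 34.5% and 32.4% of all 10097 places with RAD21 in every untreated list, so the gene-body sites were near the background. CTCF was present in all 1 h lists at 2635 sites (79.4%) and in none at 57 (1.72%), against 57.1% and 5.85% of all 25605 places with CTCF in every untreated list, which include those without cohesin. At 517 sites (15.6%) RAD21 was in no 1 h list while CTCF was in all 3, against 22.5% of sites at gene ends and 12.6% between genes. At 25 sites (0.753%) RAD21 was in all while CTCF was not, against 0.068% at gene ends and 0.927% between genes. The 1 h RAD21 lists were short and the 1 h CTCF lists long, and the part of list length in the gap between RAD21 and CTCF was not tested.

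Compared with CTCF-cohesin sites between genes, the gene-body sites held RAD21 less often in each 1 h library, by -5.14, -4.73 and -4.73 percentage points (mean -4.87, SD 0.238, n = 3). The shares between genes were 46.3%, 64.5% and 59.9%. The exact 2-sided sign-flip permutation test gave p = 0.25, the smallest that 3 libraries allow. Against CTCF-cohesin sites at gene ends the differences were 11.1, -4.53 and 19.1 percentage points (mean 8.55, SD 12.0, n = 3, exact sign-flip permutation p = 0.5), so the libraries did not share a direction.

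**Figure D1:**
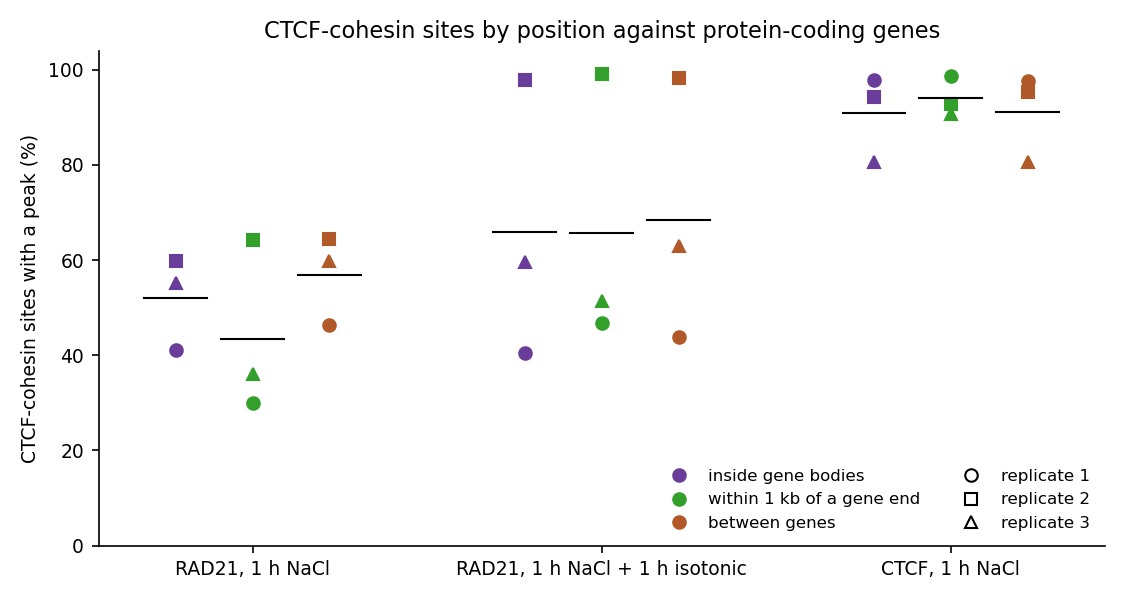
Share of CTCF-cohesin sites with a peak (%, vertical axis) inside gene bodies, within 1 kb of a gene end and between genes, for RAD21 at 1 h of NaCl, RAD21 at recovery and CTCF at 1 h. Each symbol is 1 library and each bar a mean over 3. Gene-body sites sit below sites between genes in every RAD21 library at 1 h, and recovery replicate 2 lies near 97.8% for gene-body sites.

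Sites in Pol II held RAD21 less often at 1 h than sites out of Pol II, in each of the 3 libraries. The shares were 36.5%, 57.1% and 48.4% in Pol II and 43.3%, 60.5% and 59.7% out of Pol II. The differences were -6.77, -3.41 and -11.3 percentage points (mean -7.16, SD 3.95, n = 3), with p = 0.25 in the exact 2-sided sign-flip permutation test, the smallest that 3 libraries allow. Set 1 gave the values -6.77 and -3.41 and set 2 the value -11.3. Sites in 1 Pol II list had 42.5%, 61.4% and 55.3%. RAD21 was in all 1 h lists at 301 sites in Pol II (32.2%) and 530 sites out of Pol II (38.3%), and in none at 340 (36.4%) and 404 (29.2%). The difference depended on the choice of sites and lists. It was -1.88 when untreated replicate 2 was left out of the rule, -3.18 when all 1 h RAD21 lists were shortened to 4397 peaks, and 2.19, in the opposite direction, within the 66 genes that held sites of both kinds (185 sites).

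CTCF at 1 h showed no such order. It was present at 98.1%, 92.8% and 82.9% of the sites in Pol II and at 97.7%, 95% and 79.0% of those out of Pol II. The differences of 0.385, -2.19 and 3.90 percentage points (mean 0.70, SD 3.05, n = 3) had no common direction, with exact sign-flip permutation p = 0.75. The contrast between sites in and out of Pol II was -7.85 percentage points for RAD21 minus CTCF, with p = 0.1 in the exact 2-sided permutation test over 3 against 3 libraries. All 3 RAD21 values lay below all 3 CTCF values. This separation was lost, with the contrast at -1.90 (exact permutation p = 0.6), when untreated replicate 2 was left out of the rule. It was also lost with 1 h lists of equal length, at -2.87 (exact permutation p = 0.5), and within genes that held both kinds of site, at -0.926 (exact permutation p = 0.8). The separation was incomplete, with exact permutation p = 0.2, in 3 further settings. The contrast was -6.14 within 5 equal groups of sites by untreated RAD21 percentile, -4.84 with Pol II in either untreated list, and -6.49 with sites over 5 kb from gene ends. RAD21 was in no 1 h list and CTCF in all 3 at 198 sites in Pol II (21.2%) and at 183 sites out of Pol II (13.2%). Between genes these shares were 13.6% in Pol II and 11.9% out of it. Benjamini-Hochberg adjustment over 11 tests, which are those given with a p here (alternative settings aside) and a comparison of Pol II between 1 h and no stress, left none below 0.367.

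**Figure D2:**
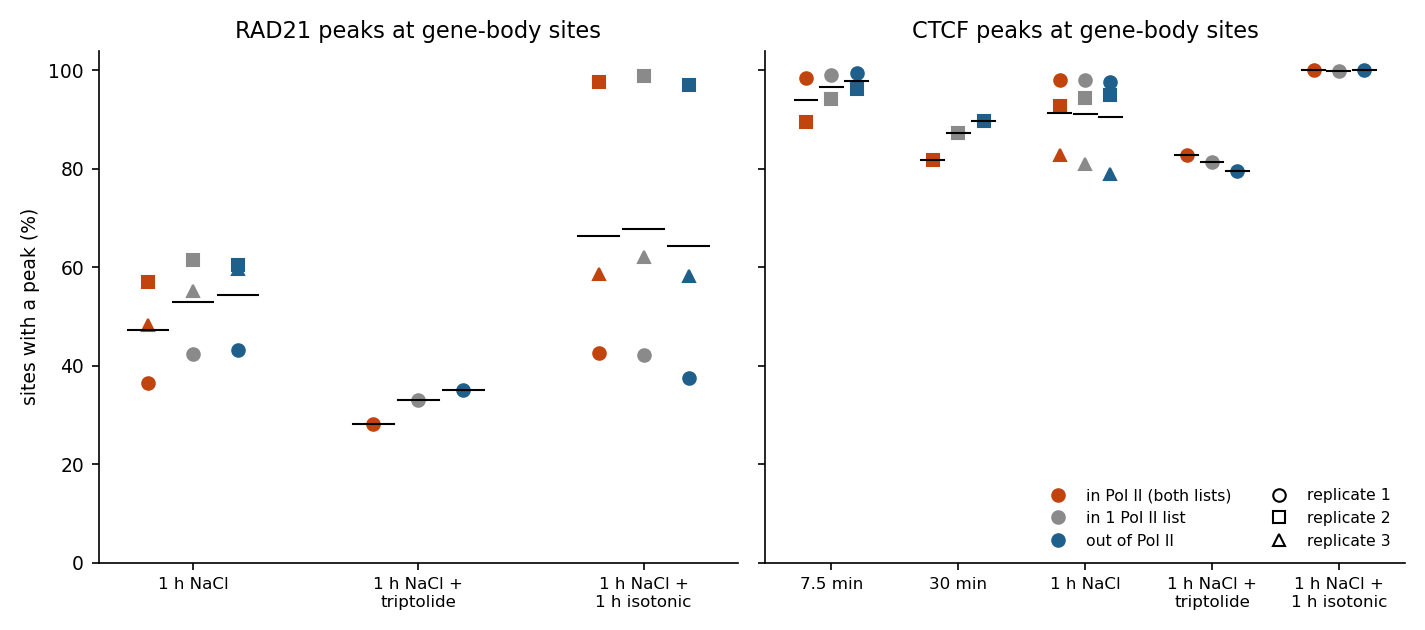
Share of gene-body sites with a RAD21 peak (left) and a CTCF peak (right), in %, by condition, for sites in Pol II, in 1 Pol II list and out of Pol II. Each symbol is 1 library, with replicate 3 and the single triptolide and CTCF recovery libraries from set 2, and bars are means. For RAD21 at 1 h the sites in Pol II lie below those out of Pol II in each library.

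The share of sites with RAD21 at 1 h was also set against the strength of the untreated RAD21 peaks. Those peaks helped to choose the sites and the 1 h lists were shorter, so this is a description. The sites were ranked by the percentile of RAD21 fold enrichment in the untreated library where they ranked lowest and cut into 5 equal groups. RAD21 was present at 1 h in 12.3%, 33.9% and 21.8% of the weakest group and in 78.6%, 90.4% and 87.5% of the strongest, and it was higher in each successive group in every library. Between sites in and out of Pol II within the same group, the share in Pol II was the lower one in all 5 groups of replicates 1 and 3 and in 2 of the 5 groups of replicate 2. In the second group, where replicates 1 and 3 had their widest gaps, it was 18.6%, 38.8% and 31.7% in Pol II and 25.9%, 46.8% and 45.1% out of Pol II. In the third group it was 29.1%, 58.9% and 51.9% in Pol II and 34.7%, 54.9% and 58.2% out of Pol II. Averaged over groups by the number of sites in Pol II, the difference was -4.78 percentage points, with exact sign-flip permutation p = 0.25. CTCF followed untreated RAD21 strength less steeply, from 95.2%, 87.2% and 75.5% in the weakest group to 99.4%, 97.9% and 91.0% in the strongest.

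**Figure D3:**
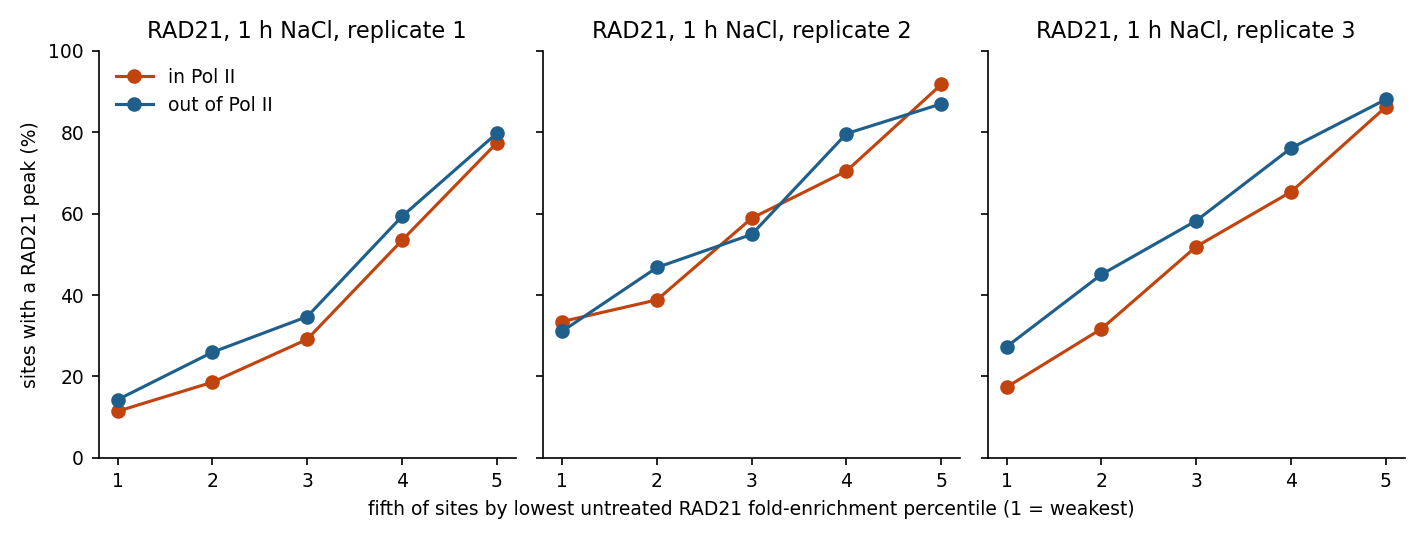
Share of gene-body sites with a RAD21 peak at 1 h of NaCl (%, vertical axis) against the group of sites by lowest untreated RAD21 percentile (horizontal axis, weakest to strongest), for sites in Pol II and out of Pol II, with 1 panel for each replicate. In replicate 1 the strongest group reached 77.3% in Pol II and 79.7% out of Pol II.

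Among sites in Pol II with strong untreated RAD21 peaks, some held RAD21 through stress and others, which ranked lower, did not. The 6 strongest that stayed in all 1 h RAD21 lists were in ARNT, TSPAN15, GSN, FGD5, MSI2 and LMNA. The site in LMNA, which encodes the nuclear lamins A and C, lies at chr1:156096449-156097086 (build hg38, as for all sites below), 14.2 kb from a gene end. Its RAD21 fold enrichments were 11.1, 17.6 and 10.3 at 1 h and 36.7, 36.0 and 25.0 without stress. The site in GSN, the gene of the actin-severing protein gelsolin, had 12.5, 15.5 and 10.8 at 1 h and 38.0, 27.9 and 35.3 without stress. In ARNT, the gene of the partner of the hypoxia and dioxin sensors, RAD21 stayed with 5.97, 8.53 and 4.51 at 1 h, against 40.1, 28.5 and 37.5 without stress, while CTCF was missing from 1 of 3 lists.

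The strongest sites in Pol II that were in no 1 h RAD21 list were in PEX14, NAALADL2, CLIP1, BANP, PRDM1 and THOC5. PEX14 encodes part of the import pore of peroxisomes. Its site (chr1:10530195-10530727) had RAD21 fold enrichments of 22.2, 36.0 and 25.3 without stress, no peak in any 1 h list, and 9.22, 40.7 and 8.07 at recovery. BANP encodes a factor that binds unmethylated CpG elements. Its site (chr16:87983139-87983806) had RAD21 at 16.4, 14.7 and 15.7 without stress, no peak at 1 h, and 5.90, 22 and 6.28 at recovery, and CTCF stayed in all 3 lists at 1 h with 20.3, 11.2 and 5.59. THOC5, which encodes a subunit of the THO complex of mRNA export, had the same pattern, with RAD21 at 19.3, 12.7 and 23.5 without stress and 5.79, 16.3 and 7.09 at recovery. Sites in NAALADL2 and CLIP1 were again in all recovery lists, and the site in PRDM1 was in 2 of 3.

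Out of Pol II, the strongest sites that stayed in all 1 h RAD21 lists were in CPSF4L, TPRG1, TMEM132B, GABRG3, ASTN2 and MYLK. The site in MYLK, the gene of myosin light chain kinase (chr3:123651621-123652817), had RAD21 at 11.1, 25.6 and 16.8 at 1 h and 31.2, 32.3 and 27.6 without stress. The strongest in no 1 h list were in TMEM163, TMEM131, TRAPPC9, APOL3, RFX3 and PI4KA. At TMEM163, which encodes a zinc transporter (chr2:134460420-134460951), RAD21 had 23, 18.7 and 19.6 without stress, no peak at 1 h, and 11.4, 31.8 and 11.4 at recovery, with CTCF in all 3 lists at 1 h. RFX3 encodes a transcription factor of ciliated cells, and its RAD21 peak was in 2 of the 3 recovery lists. Sites of both fates were thus found in and out of Pol II, but the named sites were not of like strength. The lowest untreated RAD21 percentiles of those that stayed were 97.99 to 98.64 in Pol II and 98.74 to 99.66 out of it. Those of the sites in no 1 h list were 80.85 to 94.49 in Pol II and 85.17 to 92.94 out of it.

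The 57 sites in no CTCF list at 1 h were chosen for that absence, so their values in the other libraries are a description. CTCF was present at 35 and 21 of them (61.4% and 36.8%) in the 2 libraries at 7.5 min and at 0 in the library at 30 min, and at all 57 in the recovery library. The lists held 36962 and 31074 peaks at 7.5 min, 26737 at 30 min and 46377 at recovery, and the recovery list had CTCF at 99.94% of all gene-body sites. The part of list length in this course was not tested. Among the 2635 sites in all 1 h CTCF lists, the shares were 100% and 97.2% at 7.5 min and 93.5% at 30 min. RAD21 was present at 1, 1 and 1 of the 57 at 1 h and at 7, 49 and 18 at recovery. The strongest of the 57 were in PRDM1, P2RX1, GALNTL5, KRT83, TSPAN9 and SLC12A8. At PRDM1, the gene of a repressor of lymphocyte and epithelial differentiation (chr6:106085987-106086603), CTCF had fold enrichments of 30.1, 9.13 and 14.1 without stress and was in neither list at 7.5 min, not in the list at 30 min and in no list at 1 h. P2RX1 encodes an ATP-gated ion channel and KRT83 a hair keratin. With untreated replicate 2 left out of the rule the number of such sites was 246, without 1 h replicate 1 it was 150, and with 1 h CTCF lists shortened to 22018 peaks it was 281.

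At the intermediate times CTCF was present less often in Pol II than out of it. The shares were 98.5% and 89.5% in Pol II and 99.4% and 96.3% out of Pol II at 7.5 min, and 81.8% and 89.8% at 30 min. These were not tested, since there were 2 libraries and 1. The gap was wider in replicate 2, which gave the second value at 7.5 min and the only one at 30 min. At 1 h only replicate 2 had this sign, at -2.19 percentage points. In untreated CTCF lists, the median percentiles in and out of Pol II were 44.4 and 69.3 in replicate 2. They were 77.0 and 81.7 in replicate 1 and 83.5 and 77.0 in replicate 3. The part of the replicate in this order was not tested. Between genes the order of the shares in and out of Pol II was the same. There CTCF was at 98.8% and 92.5% in Pol II and 99.3% and 96.8% out of it at 7.5 min, and at 85.7% and 90.6% at 30 min. The list at 30 min held 26737 peaks, and it had CTCF at 86.8% of the gene-body sites, 74.7% of the sites at gene ends and 89.7% of the sites between genes, against 78.3% of all places with CTCF in every untreated list. The exact Clopper-Pearson 95% interval for gene-body sites is 85.6% to 87.9% and covers counting error alone.

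Pol II itself was called at fewer of the gene-body sites after 1 h of NaCl. It was present at 24.6% and 28.2% of the 3318 sites at 1 h (26.4% ± 2.58, SD, n = 2) and at 39.5% and 47.0% without stress (43.2% ± 5.29, SD, n = 2). The groups did not overlap, and the difference was -16.8 percentage points. The fall was not particular to gene bodies. At gene ends the mean share was 40.9% at 1 h and 69.0% without stress, and between genes 24.1% and 35.1%. No test is given, since the untreated Pol II lists defined the split of the sites. In the same lists, regions at 1 h were as many or more than without stress, at 107396 and 216968 against 105302 and 88046. Of the 934 sites in Pol II without stress, 174 (18.6%) were in both 1 h Pol II lists and 428 (45.8%) in neither, against 21.2% and 40.8% of all CTCF-cohesin sites in Pol II. RAD21 at 1 h was present at 35.1%, 58.6% and 46.6% of the 174 and at 37.2%, 55.4% and 49.1% of the 428, a difference that was not tested and had no common direction.

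Around the sites, untreated Pol II regions gathered on the CTCF summit and were more frequent downstream than upstream. Positions were taken along the direction of transcription for the 2579 sites in a gene of known strand. A Pol II region covered the summit of 21.0% and 21.3% of sites at 1 h and of 35.7% and 43.9% without stress. At 5 to 10 kb upstream the coverage was 14.8% and 17.1% at 1 h and 19.0% and 18.4% without stress, and at 5 to 10 kb downstream it was 15.3% and 16.8% at 1 h and 22.8% and 22.3% without stress. The excess of downstream over upstream was 0.511 and -0.331 percentage points at 1 h and 3.78 and 3.81 without stress. The difference between the groups was -3.70, again with no test. Gene-body CTCF sites with RAD21 in no untreated list, of which 2163 had a known strand, had lower values at the summit and higher untreated values on the flanks, a comparison that was not tested. Their coverage at the summit was 15.6% and 18.0% at 1 h and 32.2% and 36.1% without stress, their untreated coverage was 22% and 20.6% upstream and 24.1% and 23.2% downstream, and the untreated excess of downstream over upstream was 2.11 and 2.61 percentage points. The downstream excess was not confined to the near flanks. At 15 to 20 kb from the sites with cohesin, untreated coverage was 18.1% and 18.0% upstream and 21.5% and 20.7% downstream.

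**Figure D4:**
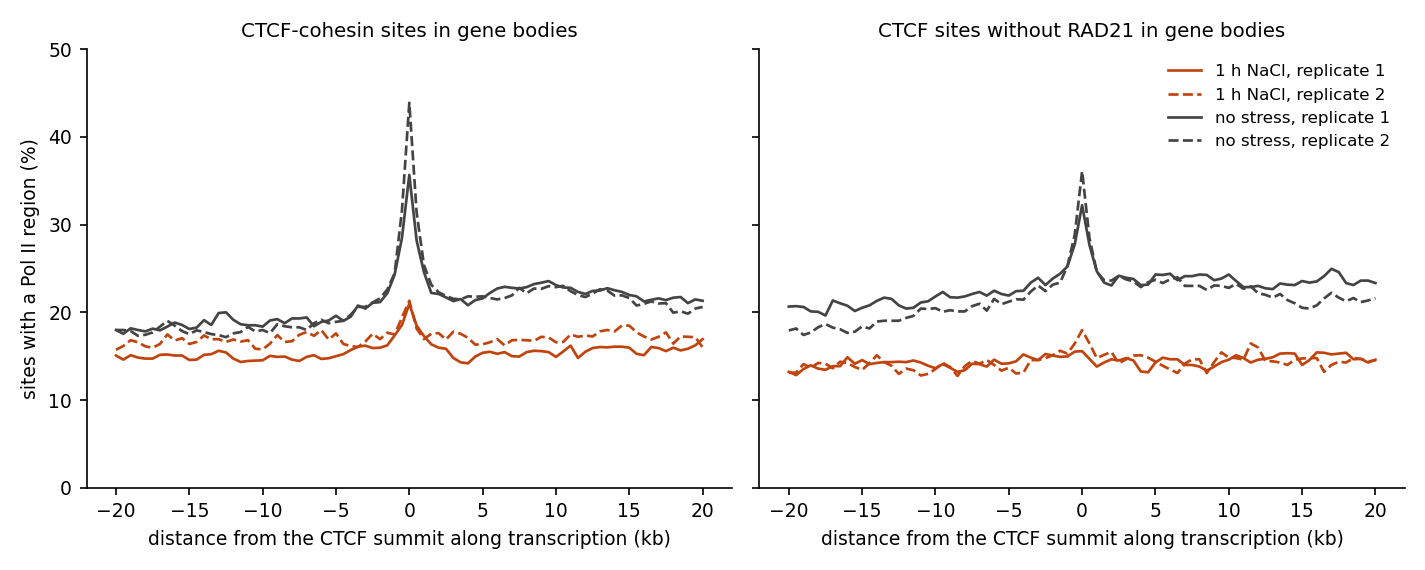
Share of sites covered by a Pol II region (%, vertical axis) against the distance from the CTCF summit along transcription (kb, horizontal axis), for gene-body sites with cohesin (left) and gene-body CTCF sites without RAD21 (right), with 1 line for each library. The untreated lines peak at 35.7% and 43.9% at the summit of sites with cohesin, and the 1 h lines at 21.0% and 21.3%.

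At recovery, RAD21 was called at 40.4%, 97.8% and 59.5% of the gene-body sites (65.9% ± 29.2, SD, n = 3). The mean was 13.9 percentage points above 1 h, with exact permutation p = 0.7, and the groups overlapped. Without recovery replicate 2 the difference was -2.07, the other way, and without recovery replicate 3, whose tag and title disagree, it was 17.1. Sites in Pol II had 42.6%, 97.8% and 58.7% and sites out of Pol II 37.6%, 97.1% and 58.2%, so that the differences were 5.04, 0.642 and 0.435 percentage points (mean 2.04, SD 2.60, n = 3, exact sign-flip permutation p = 0.25). The mean was 0.539 without recovery replicate 1, 5.70 with untreated replicate 2 left out of the rule, and 7.58 with lists of equal length. The contrast between sites in and out of Pol II was 9.20 percentage points higher at recovery than at 1 h, with exact permutation p = 0.1 over 3 against 3 libraries and all recovery values above all 1 h values. It was 3.79 with p = 0.5 in the same exact permutation test within genes that held both kinds of site. Without recovery replicate 1, 2 or 3 it was 7.70, 9.89 and 10.0, with exact permutation p = 0.2, 0.1 and 0.1. Of the 1032 sites in no 1 h RAD21 list, 109 were in all 3 recovery lists, against 10.2% of all places with RAD21 lost in the same way. These 109 included 45 of the 340 such sites in Pol II and 33 of the 404 out of Pol II. Between genes the order was the other way, with 24 of 248 such sites in Pol II and 73 of 637 out of it. Neither was tested. No 1 h and no recovery list had RAD21 at 53 gene-body sites. Sites between genes also had RAD21 at recovery more often in Pol II (50.3%, 99.4% and 63.6%) than out of it (40.4%, 98.0% and 61.9%), which was not tested.

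With triptolide there was 1 library for each condition, all in set 2, so no test was made. At 1 h of NaCl with triptolide RAD21 was present at 32.6% of the gene-body sites, against 55.2% in the set 2 library at 1 h without it, from lists of 3344 and 6630 peaks. Across all places with RAD21 in every untreated list the share with triptolide was 28.9%. The shares were 28.3% for sites in Pol II and 35.2% for sites out of Pol II, so the order seen without triptolide was the same with it. CTCF at 1 h was present at 81.0% of the sites with triptolide and at 80.7% without. At recovery with triptolide, RAD21 was present at 99.6% of the sites (98.9% of all places with RAD21 in every untreated list), from a list of 22967 peaks, and in the set 2 recovery library titled without triptolide at 59.5%, from 6492 peaks. The tags contradict the titles in that set, so which of the libraries had triptolide is uncertain.

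Sites in genes of selected groups were followed next. Among calcium and potassium channel genes, 20 of 40 held a site, 32 sites in all. Of all protein-coding genes 12.9% did, but that share counts only the shortest gene around each site. The list counts every gene around a site, and gene lengths were not matched, so these shares are not alike. RAD21 was in all 1 h lists at 19 of the 32 sites (59.4%) and in none at 2, against 35.9% and 31.1% of all gene-body sites. The channel genes with a site included ITPR1, an intracellular calcium release channel. Its stronger site had RAD21 fold enrichments of 22.5, 31.0 and 28.2 at 1 h and 29.3, 25.3 and 33.6 without stress. KCNQ1, a potassium channel of heart and epithelia, held 2 neighbouring sites that both stayed in all 1 h lists. Of the 32 sites 7 were in Pol II and 19 out, and their untreated RAD21 percentile had a median of 63.1, against 54.4 over all gene-body sites. Among genes of chromatin regulators 17 of 62 held 25 sites, with RAD21 in all 1 h lists at 6 and in none at 12. KDM4B, a histone demethylase, held a site that stayed in all lists (6.40, 9.02 and 6.52 at 1 h) and another in none, at a similar untreated percentile (66.3 and 59.0). CTCF stayed in all 1 h lists at 22 of these 25.

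Luminal breast genes held 5 sites in 4 of 24 genes, all in Pol II. Their untreated RAD21 percentile had a median of 28.3, against 54.4 over all gene-body sites. ESR1, the gene of estrogen receptor alpha, had a site (chr6:151675651-151676167) with RAD21 in all lists, at 5.52, 7.51 and 7.46 at 1 h and 16.0, 11.7 and 19.1 without stress. In GATA3, which encodes a luminal transcription factor, RAD21 had 10.1, 8.72 and 5.82 without stress, no peak at 1 h and 4.51, 13.6 and 3.19 at recovery, and CTCF stayed in all 3 lists at 1 h. KRT8, a luminal keratin gene, kept RAD21 in 2 of 3 lists, and both sites in TFAP2A, the gene of transcription factor AP-2 alpha, had RAD21 in none. Nuclear receptor genes held 15 sites, 7 with RAD21 in all 1 h lists and 6 in none. RARA, the retinoic acid receptor alpha gene, kept RAD21 at 10.4, 20.0 and 8.84 at 1 h, against 40.9, 36.5 and 23 without stress, while VDR, the vitamin D receptor gene, had it in no list at 1 h.

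Genes of the osmotic response and of cell volume held 12 sites in 11 of 29 genes, 6 with RAD21 in all 1 h lists and 3 in none. SLC6A6, the taurine transporter gene, held both fates within a few kilobases. Its site at chr3:14461647-14462204 had no RAD21 peak at 1 h, against 13.7, 10.5 and 11.9 without stress, and that at chr3:14467960-14468539 had 5.99, 5.70 and 7.61 at 1 h and 9.13, 8.06 and 12.7 without stress. SGK1, a kinase gene of ion transport, had RAD21 in no 1 h list. Of 50 sites in synaptic and neuronal genes 18 had RAD21 in all 1 h lists and 12 in none, of 25 in collagen and laminin genes 10 and 6, of 14 in receptor tyrosine kinase genes 6 and 2, of 7 in haematopoietic genes 1 and 0, of 5 in elongation and termination genes 1 and 1, and of 3 in genes of CTCF, cohesin and loop factors 1 and 2. Sites in 1 gene are neighbours and no replicates.

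The gene with the most sites was GSE1, which encodes a subunit of a histone deacetylase and demethylase complex. Its 13 sites lay between chr16:85245318 and chr16:85660271, 4 in Pol II and 9 in 1 list, and CTCF stayed in all 1 h lists at all 13. RAD21 was called at 6, 9 and 9 of the 13 at 1 h, in all 1 h lists at 6 and in none at 3. The strongest of them, at chr16:85275244-85276149, had RAD21 at 16.4, 21.0 and 12.5 at 1 h and 25.7, 21.5 and 17.8 without stress. ELMO1, KALRN, NTM, PDE4D and TBCD held 6 sites each and ASTN2 and GNG7 were the first in the alphabet of 9 genes that held 5 each. In NTM, a cell adhesion gene of neurons, RAD21 was called at 6, 6 and 5 of the 6 sites at 1 h, and in TBCD, the gene of a tubulin folding cofactor, at 1, 3 and 1 of 6.

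Where both proteins stayed, the distance between them was measured. Over the 1167 sites in all 1 h lists of both proteins, the median distance between the RAD21 and CTCF summits was 31, 36 and 23 bp at 1 h (30.0 ± 6.56 bp, SD, n = 3) and 32, 39 and 31 bp without stress (34.0 ± 4.36 bp, SD, n = 3). The difference of -4.00 bp had p = 0.5 in the exact permutation test. It was -1.08 without 1 h replicate 3, -1.83 without untreated replicate 2 and -7.58 without 1 h replicate 2. The direction along the gene was compared as well, and was not tested. In genes on the plus strand the RAD21 summit lay to the left of the CTCF summit at 54.0%, 54.1% and 51.1% of the sites with both peaks at 1 h, and at 52.7%, 53.7% and 52.6% of 1352 sites without stress. In genes on the minus strand it lay to the right at 51.2%, 52.6% and 49.1% at 1 h and at 53.4%, 54.3% and 53.8% of 1227 sites without stress.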

How the data were processed

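The data were 29 peak lists from 41 samples, 13 for CTCF, 12 for RAD21 and 4 for Pol II, each of 1 library. Per the submitters' processing notes, the tools were cutadapt, Bowtie2 version 2.2.6, MACS2, DiffBind version 2.4.6, DESeq2 and HOMER and the build was hg38. For the caller's threshold and control, the value is not given in the sources used here. For each peak the authors' lists give a fold enrichment (a ratio to the caller's background), deposited -log10 p and -log10 q values, a deposited integer score, and positions. They served to order, select and describe peaks of the same list. Input samples were not analysed here.

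Chromosomes 1 to 22 and X were analysed in Python 3.11.15. The packages were pandas 2.3.3, numpy 2.4.6 and, for figures, matplotlib 3.10.9. A peak was present at a site when it overlapped by 1 bp. Genes came from RefSeq for GRCh38.p14 (19974 protein-coding genes), and strands from the RefSeq table of transcript starts. One value was computed for each library, and values were compared over libraries with exact 2-sided sign-flip or permutation tests, at a threshold of 0.05. Functions were tested on simulated sites. Sites, gene lists and named genes were chosen with earlier results of these data known. Named sites are the 6 of each class and fate with the highest percentile of RAD21 fold enrichment in the untreated library where they ranked lowest, 8 genes with the most sites (ties in alphabetical order), and list members. NaCl is given as 110 mM, as in the titles, although the series text gives 100 mM. Replicate tags of the CTCF library at 30 min and of the Pol II replicate 2 libraries differ from the titles, which were followed.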

Additional observations from a re-analysis of the deposited data

Results flagged for a closer look

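The contrast between gene-body sites in and out of Pol II differed between recovery and 1 h of NaCl by 9.20 percentage points for RAD21. Every library at recovery had a positive value (5.04, 0.642 and 0.435) and every library at 1 h a negative one (-6.77, -3.41 and -11.3). The exact permutation test gave p = 0.1, the smallest for 3 against 3 libraries. It was 3.79 (exact permutation p = 0.5) within genes that held both kinds of site, where the 1 h difference was itself positive at 2.19, and ranged from 3.79 to 11.1 over the alternatives. The result drew attention because all libraries of a condition pointed the same way and those of the other condition the opposite way. Recovery replicate 2 had RAD21 at 97.8% of sites in Pol II and 97.1% out of it, which left little room for a difference. Without that library the contrast was 9.89 percentage points higher at recovery, and with lists of equal length it was 10.8. The tag and title of recovery replicate 3 disagree on triptolide. RAD21 lists held 4397, 20400 and 6492 peaks at recovery and 4761, 7843 and 6630 at 1 h, and the part of list length in this result was not tested beyond the shortened lists. The positive sign at recovery was not particular to gene bodies. Between genes RAD21 was present at recovery at 50.3%, 99.4% and 63.6% in Pol II and at 40.4%, 98.0% and 61.9% out of it. At 1 h it was at 46.6%, 66.8% and 57.5% in Pol II and at 44.5%, 62.0% and 59.7% out of it. These values were not tested.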

How the results depend on the processing

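The difference in RAD21 at 1 h between gene-body sites in and out of Pol II lay between -9.03 and 2.19 percentage points over 18 alternatives, and its sign was positive, at 2.19, within genes that held both kinds of site. For CTCF the same difference was 0.70 and changed sign to -0.536 with Pol II regions of -log10 q of at least 1.3, to -0.303 with lists of equal length, and to -0.902 without 1 h replicate 3, which is also the value of set 1 alone, and was 2.14 at most with a library left out. RAD21 at recovery minus 1 h was -2.07 without recovery replicate 2, and 26.6 at most. The number of sites absent from all 1 h RAD21 lists was 1570 with equal list lengths, and 1059 to 2573 with a library left out. The number absent from all 1 h CTCF lists was 281 with equal list lengths, and with a library left out 57 to 246, where 150 was the value without 1 h replicate 1. With a library left out the rule gave 3318 to 5398 sites, the most without untreated replicate 2. The contrast of RAD21 minus CTCF between sites in and out of Pol II ranged from -11.2 to -0.926. The cause was not tested. Depth is unknown, so a missing peak is not an absent protein.

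With the replicate number as a block, the differences were the same and the exact permutation p was 0.5 for recovery minus 1 h (13.9), 0.25 for RAD21 minus CTCF (-38.9) and 0.25 for the contrasts of 9.20 and -7.85. Pol II differed by -16.8 with the block too. Same-numbered libraries correlated in their deviations at 0.055, 0.003 and 0.076 for RAD21 at recovery and 1 h, so the numbers were not taken to pair the samples in the main tests of shares. The summit distances did join RAD21 and CTCF libraries of the same number. For those the correlations at 1 h were 0.086, -0.053 and -0.005. The block changed no call.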
